A study of Mus musculus with 9 samples.

Results

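HEB, the basic helix-loop-helix factor encoded by Tcf12, was compared on the genome of CD73- cells and of the DN3 cells from which they were grown. The comparison used 9407 CD73- HEB peaks and 11619 DN3 HEB peaks on chromosomes 1 to 19, X and Y, which are 21026 of the 79216 peaks in the 6 lists of the series. A DN3 peak that overlapped a CD73- HEB peak by at least 1 bp was called kept, a DN3 peak without such an overlap was called not met again, and a CD73- peak without a DN3 partner was called new. Each peak was assigned to the protein-coding gene whose span lay nearest in mm10.

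The CD73- cells were BALB/c Rag2-deficient thymocytes raised from fetal liver progenitors on OP9-DL1, a stromal line that displays a Notch ligand. After harvest at day 7 of culture, DN3 cells were left overnight with cells that produce a YFP-marked retrovirus for KN6, a gamma-delta T cell receptor. YFP+ cells were then grown for 3 days on OP9-DL1 and sorted as Thy1+ YFP+ CD4- CD8- CD24+ CD73-, a population that per the labels could still become alpha-beta cells. The DN3 cells were BALB/c Rag2-deficient cells from the same culture system, gated per the protocol as Thy1.2+ CD4- CD8- CD25+ CD44-. Every cell in the series therefore lacked Rag2, and any antigen receptor in the CD73- cells was the transduced one. Cells that received a virus without the receptor are not among the samples, so the receptor, the virus and the 3 further days of culture cannot be told apart. Both populations were fixed in 1% formaldehyde for 10 min and immunoprecipitated with rabbit antiserum raised against the carboxy-terminal end of HEB. The authors joined duplicates into 1 file, so each population has 1 list and no value below has a replicate error or a test. Intervals are 95% Wilson intervals and cover counting error only.

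HEB and its relative E2A (Tcf3) are E proteins. They bind the E-box, a short palindrome-like motif, as homodimers or heterodimers, and in thymocyte precursors they drive T lineage genes and antigen receptor rearrangement. Id proteins, which lack a basic region, pair with E proteins and keep them from DNA. Signals from the pre-T cell receptor or the gamma-delta receptor induce Egr factors and, through them, Id3, and stronger signalling is tied to gamma-delta commitment, which CD73 marks.

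Promoter sequences show what HEB covered in each class. The following 250 bases before the gene start were taken from RefSeq (GRCm38.p6, the mm10 build) and are written 5' to 3' along the gene's strand, with the E-boxes CAGCTG and CAGGTG, or CACCTG where CAGGTG is on the other strand, in capitals. They belong to the windows with the highest peaks of their class that hold such an E-box, for CD73- peaks outside the crowded stretches defined further on, so the presence of an E-box in them was a condition of choice. The kept sites shown are those of Cd2ap, the gene of an adaptor that binds the tail of CD2 (chr17:42876425-42876674, minus strand), Arpp21, a phosphoprotein gene of immature thymocytes (chr9:112217262-112217511, minus strand), Sla2, an adaptor that dampens antigen receptor signalling (chr2:156887222-156887471, minus strand), Dpcd (chr19:45560335-45560584, plus strand), and Bbc3, which encodes the pro-apoptotic protein PUMA (chr7:16310011-16310260, plus strand).
Cd2ap: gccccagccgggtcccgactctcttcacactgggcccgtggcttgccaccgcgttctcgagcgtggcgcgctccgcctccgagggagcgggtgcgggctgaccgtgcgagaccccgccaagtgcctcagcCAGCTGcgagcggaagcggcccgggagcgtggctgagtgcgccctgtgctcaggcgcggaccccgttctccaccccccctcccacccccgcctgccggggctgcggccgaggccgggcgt
Arpp21: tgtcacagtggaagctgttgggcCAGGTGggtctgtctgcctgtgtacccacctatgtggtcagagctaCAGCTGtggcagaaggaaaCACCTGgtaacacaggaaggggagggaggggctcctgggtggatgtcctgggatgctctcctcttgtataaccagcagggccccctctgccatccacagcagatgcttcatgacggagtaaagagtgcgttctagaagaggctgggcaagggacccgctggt
Sla2: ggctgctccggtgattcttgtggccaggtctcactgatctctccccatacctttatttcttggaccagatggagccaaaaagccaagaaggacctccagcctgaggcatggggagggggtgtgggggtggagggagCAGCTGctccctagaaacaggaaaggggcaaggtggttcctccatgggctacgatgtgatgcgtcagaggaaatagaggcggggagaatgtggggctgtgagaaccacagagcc
Dpcd: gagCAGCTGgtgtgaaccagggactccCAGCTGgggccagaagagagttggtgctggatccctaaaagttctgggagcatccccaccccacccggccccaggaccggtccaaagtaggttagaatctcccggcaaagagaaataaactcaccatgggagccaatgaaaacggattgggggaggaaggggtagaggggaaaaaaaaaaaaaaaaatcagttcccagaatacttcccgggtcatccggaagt
Bbc3: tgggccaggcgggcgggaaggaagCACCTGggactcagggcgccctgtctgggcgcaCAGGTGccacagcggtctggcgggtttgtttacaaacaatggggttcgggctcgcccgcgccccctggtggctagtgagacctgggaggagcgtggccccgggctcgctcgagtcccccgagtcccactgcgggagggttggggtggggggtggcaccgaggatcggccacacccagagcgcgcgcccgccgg
At Cd2ap, which had the highest CD73- peak of the 5, the only marked E-box lay outside that peak. At the other genes all marked E-boxes lay inside the CD73- peak, with 3 at Arpp21, 1 at Sla2, 2 at Dpcd and 2 at Bbc3. The CD73- peak scored 433 at Cd2ap, against a DN3 score of 1123, and 396 at Arpp21, against a DN3 score of 856. At Sla2 the scores were 386 in CD73- cells and 608 in DN3 cells, at Dpcd 373 in CD73- cells and 1234 in DN3 cells, and at Bbc3 290.1 in CD73- cells and 533 in DN3 cells. The score is the authors' value, minus 10 times the log10 of the MACS p-value, and the lowest in the lists used here is 50. It ranks peaks within a list, and scores of different lists are not a measure of change.

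Promoters whose DN3 peak was not met again are shown for the metalloproteinase gene Adamts17 (chr7:66839485-66839734, plus strand) and for Adamtsl2, whose product is a secreted relative of that family (chr2:27079129-27079378, plus strand). New CD73- peaks are shown for Ptma, the prothymosin alpha gene (chr1:86526307-86526556, plus strand), and for Mlf2 (chr6:124931138-124931387, plus strand).
Adamts17: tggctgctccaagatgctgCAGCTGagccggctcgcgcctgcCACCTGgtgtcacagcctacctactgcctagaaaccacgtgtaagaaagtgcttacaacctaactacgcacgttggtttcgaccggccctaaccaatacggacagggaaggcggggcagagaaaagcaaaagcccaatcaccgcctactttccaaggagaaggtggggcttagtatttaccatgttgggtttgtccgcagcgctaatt
Adamtsl2: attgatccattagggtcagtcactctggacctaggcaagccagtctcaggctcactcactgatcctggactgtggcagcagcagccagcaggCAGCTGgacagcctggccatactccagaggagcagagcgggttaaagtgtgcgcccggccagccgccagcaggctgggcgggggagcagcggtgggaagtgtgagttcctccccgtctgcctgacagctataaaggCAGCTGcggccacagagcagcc
Ptma: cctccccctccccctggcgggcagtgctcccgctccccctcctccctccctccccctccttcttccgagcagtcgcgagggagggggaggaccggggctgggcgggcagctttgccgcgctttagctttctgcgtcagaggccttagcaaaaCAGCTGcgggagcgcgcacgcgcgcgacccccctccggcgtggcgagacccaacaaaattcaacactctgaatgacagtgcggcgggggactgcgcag
Mlf2: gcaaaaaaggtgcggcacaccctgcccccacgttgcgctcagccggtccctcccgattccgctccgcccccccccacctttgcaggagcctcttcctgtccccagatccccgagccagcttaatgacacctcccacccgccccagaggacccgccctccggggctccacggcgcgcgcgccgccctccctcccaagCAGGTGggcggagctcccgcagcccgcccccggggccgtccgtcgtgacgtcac
The DN3 HEB peak scored 580 at Adamts17 and 361 at Adamtsl2, and the DN3 E2A list held a peak at both, with scores of 977 and 684. Both E-boxes of each promoter lay inside the DN3 peak. The new CD73- peaks scored only 111 at Ptma and 109 at Mlf2, and the marked E-box lay inside the peak at Ptma but outside it at Mlf2.

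Over all 21263 RefSeq promoter windows, which run from 250 bases before to 50 after a start and belong to 17492 genes, CAGCTG was present in 15.6%, CAGGTG in 19.7% and either motif in 31.9%. A kept CD73- HEB peak lay in 76 of these windows, and 65.8% of them (54.6 to 75.5%) held either motif. Among 39 windows with only a new CD73- peak the share was 38.5% (24.9 to 54.1%), and among 426 windows with only a DN3 peak not met again it was 53.5% (48.8 to 58.2%). CD73- peaks are narrow and DN3 peaks wide, so the closer comparison is between windows chosen by DN3 peaks: of 133 windows with a kept DN3 peak 55.6% (47.2 to 63.8%) held either motif, close to the 53.5% above. For DN3 peaks scoring at least 100 the order was the other way, with 49.5% (40.1 to 58.9%) of 105 kept windows and 55.9% (46.2 to 65.1%) of 102 windows not met again, and the intervals overlapped in both cases. CAGGTG alone was in 52.6% of windows with a kept CD73- peak, 25.6% with a new peak, 41.4% with a kept DN3 peak and 34.3% with a DN3 peak not met again, and at DN3 scores of at least 100 in 35.2% of kept and 42.2% of not met again windows. CAGCTG was in 31.6% of windows with a kept CD73- peak, 15.4% with a new peak, 27.8% with a kept DN3 peak and 28.2% with a DN3 peak not met again. The Runx core TGTGGT was in 13.2%, 23.1%, 12.8% and 15.02% of these windows in the same order, with 14.97% of all windows. The median GC content was 63.7% in windows with a kept CD73- peak, 58.7% with a new peak, 62.3% with a kept DN3 peak, 63.3% with a DN3 peak not met again and 56.3% in all windows, and its part in these shares was not tested. Windows of alternative starts of a gene overlap, so the 76 kept windows belong to 69 genes. Neighbouring genes can also share a peak, and windows in crowded stretches were not left out. The windows are therefore not independent, which the intervals do not cover.

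**Figure D1:**
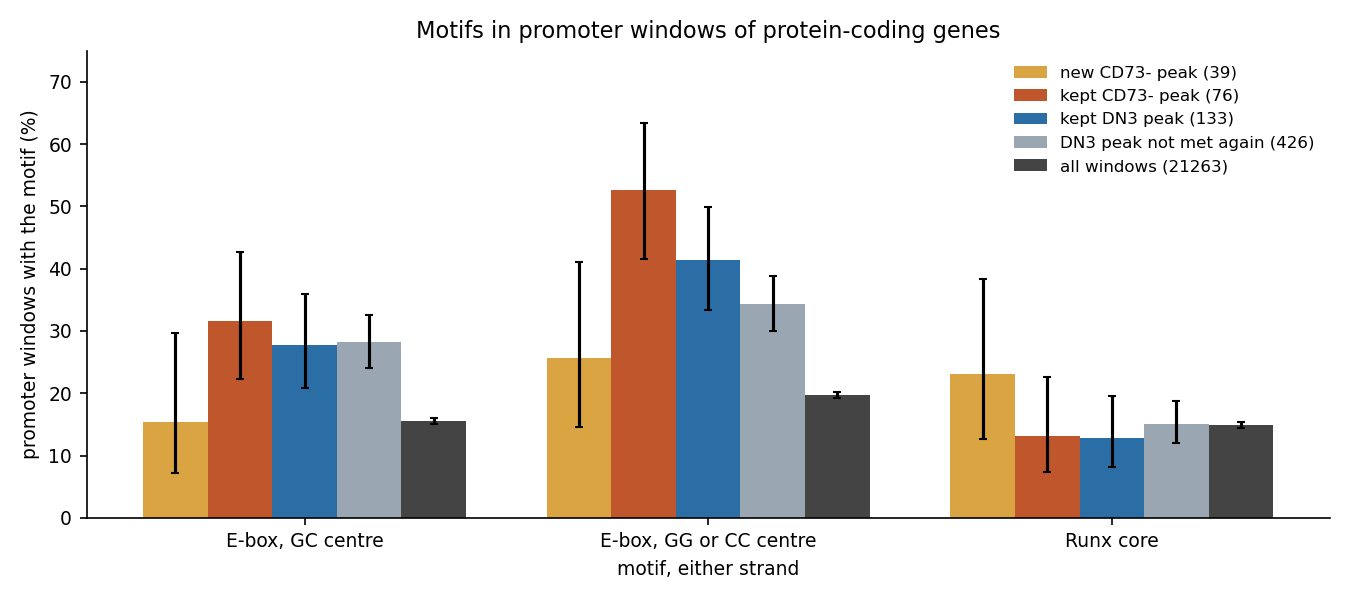
Share of promoter windows (%, vertical axis) that hold the GC-centred E-box, the GG- or CC-centred E-box or the Runx core, for windows with a new CD73- peak, a kept CD73- peak, a kept DN3 peak, a DN3 peak not met again, and all windows. Bars are shares with 95% Wilson intervals, numbers of windows stand in the legend, and the GG- or CC-centred E-box is in 52.6% of windows with a kept CD73- peak and 41.4% with a kept DN3 peak, against 34.3% with a DN3 peak not met again and 19.7% of all windows.

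Within the kept windows the E-boxes lay where the peak was. The 76 kept windows held 5.85 CAGCTG or CAGGTG motifs per kb inside the CD73- peak (76 motifs in 13000 bases) and 1.33 per kb outside it (13 motifs in 9800 bases). Inside new CD73- peaks the density was 1.56 per kb (10 motifs in 6426 bases), against 1.71 per kb outside them. Inside kept DN3 peaks it was 3.29 per kb, against 1.90 per kb outside, and inside DN3 peaks not met again 2.84 per kb, against 1.61 per kb outside. All windows together had 1.34 per kb, so the new peaks in promoters had an E-box density close to that of all windows. DN3 peaks are wide and cover most of such a window, so their density is averaged over more flanking sequence than that of CD73- peaks. Between DN3 peaks the kept and not met again densities were closer to each other than that of kept CD73- peaks was to either. Base composition inside and outside peaks was not matched. Nor was peak score matched between kept and new CD73- peaks, whose medians over all such peaks were 85.7 and 59.3.

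CD73- HEB peaks were called at a minority of DN3 HEB sites, and the strongest DN3 sites were kept most often. Of the 11619 DN3 peaks, 2256 were kept (19.4%, 18.7 to 20.1%) and 9363 were not met again (80.6%). In the CD73- list 2664 peaks overlapped a DN3 peak (28.3%) and 6743 were new (71.7%, 70.8 to 72.6%). The CD73- list was also the weaker one: 1348 of its peaks (14.3%) scored at least 100, against 3567 DN3 peaks (30.7%), and its peaks were narrower, with a median width of 149 bp in CD73- cells and 721 bp in DN3 cells. Read depth is not given with the lists, and its part in the number of peaks was not tested. A site without a peak is one where none was called, which does not show that HEB was absent.

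The kept share climbed with the DN3 score. It was 5.44% for DN3 peaks scoring 50 to 60, 21.8% at 100 to 150, 67.4% at 250 to 500, 93.5% at 500 to 1000 and 99.1% at 1000 or more. At that last level 109 of 110 DN3 peaks were kept. The exception lay 18657 bp from Xbp1, which encodes a transcription factor of the unfolded protein response. In the CD73- list the share with a DN3 partner also climbed at low scores, with 14.6% of peaks scoring 50 to 60, 70.4% at 100 to 150 and 92.2% at 150 to 250. From there on it had no order, with 97.8% at 250 to 500, 94.6% at 500 to 1000 and 97.4% at 1000 or more. Kept DN3 peaks had a median score of 178 and those not met again 65.4, and kept CD73- peaks had a median of 85.7 and new ones 59.3.

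**Figure D2:**
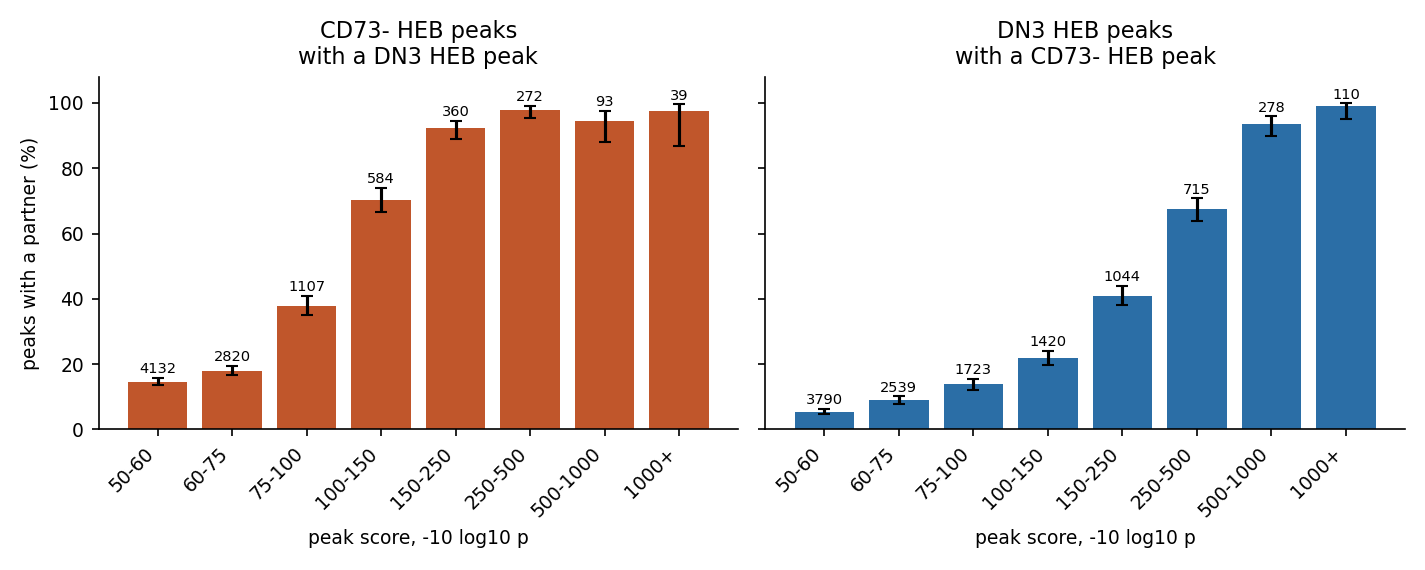
Share of HEB peaks with a partner in the other HEB list (%, vertical axis) by peak score (horizontal axis, minus 10 log10 p), for the CD73- list on the left and the DN3 list on the right. Bars are shares with 95% Wilson intervals and numbers above them count peaks, with partners for 97.4% of CD73- peaks and 99.1% of DN3 peaks at 1000 or more.

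Where a site was kept, the CD73- peak sat within the DN3 one. Of 2665 overlapping pairs, 94.5% had the CD73- peak wholly inside the DN3 peak, and the midpoints were a median of 112.5 bp apart. The scores of the pairs ranked alike to a moderate degree (Spearman's rho 0.462 over pairs, which share an input library within each population and are not independent). Most kept DN3 peaks (1995) held 1 CD73- peak, 203 held 2, and 58 held 3 or more, up to 12. Only 272 of the DN3 peaks not met again (2.91%) had a CD73- peak within 1 kb. Over all scores, new peaks lay farther from genes: 30.3% were over 100 kb from a protein-coding gene, against 13.6% of kept CD73- peaks, 14.5% of kept DN3 peaks and 17.2% of DN3 peaks not met again. A promoter window was touched by 36 new peaks (0.534%), 72 kept CD73- peaks (2.70%), 119 kept DN3 peaks (5.27%) and 366 DN3 peaks not met again (3.91%). Among CD73- peaks scoring at least 100, with those in crowded stretches included, these gaps were not seen. Of the new ones 15.5% lay over 100 kb from a gene and 4.23% touched a promoter window, against 14.5% and 3.26% of the kept ones. Crowded stretches, defined further on, held 54 of these new peaks (25.4%) and 7.84% of the kept ones. Only 9 of these new peaks touched a window, and that of the predicted gene Gm36327 lay in such a stretch. The shares without crowded stretches were not computed.

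High among the kept peaks within 10 kb of a gene was that of Ccnd3, which encodes cyclin D3, the D-type cyclin that drives division of pre-T cells. Its intragenic peak scored 2466 in CD73- cells and 3002 in DN3 cells, and 2 further peaks in the gene were kept, with scores of 250.4 in CD73- cells and 979 in DN3 cells, and of 115 in CD73- cells and 259 in DN3 cells. The peak 6630 bp from Btg2, an antiproliferative gene, scored 858 in CD73- cells and 2126 in DN3 cells. The peak 359 bp from Trim8, a ubiquitin ligase gene, scored 1549 in CD73- cells and 3100 in DN3 cells. At Edem3, which acts in the degradation of misfolded glycoproteins, the intragenic site had the top CD73- score of only 228 beside a DN3 score of 2605, and 4 separate CD73- peaks lay in that DN3 peak of 3198 bp. Thus sites with like DN3 scores ranked differently in the CD73- list.

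Some of the very highest kept peaks stood apart from genes. In the DN3 list 14 peaks scored 3100 or more, and ties at 3100 were taken in chromosome order. By that order the Trim8 peak above, which also scored 3100 in DN3 cells, fell outside the 10 described next. The top 10 by DN3 score had peaks in all 6 lists, and 6 of them lay over 100 kb from any protein-coding gene, among them 3 about 1 Mb from Lrrc4c at chr2:98662050-98663313, chr2:98663477-98664272 and chr2:98666060-98667732, and 1 of 38779 bp at chr9:2999825-3038603. The highest of all lay 20633 bp from B4galt1, a galactosyltransferase gene, with scores of 3100 in CD73- cells and 3213 in DN3 cells. In total 607 of the kept DN3 peaks (26.9%) had peaks in all 6 lists, as did 85 of the 109 that scored at least 1000. Those 85 are part of the 99.1% kept at that level. The input libraries were not analysed here as signal, so the part of background and of read mapping in the sites found in every list was not tested.

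Over all scores, the 2 E2A lists and the CD73+ HEB list, none of which defined the classes, covered kept sites more often than the rest. CD73- E2A peaks covered 55.9% of kept DN3 HEB peaks (53.8 to 57.9%) but 5.90% of those not met again and 10.3% of new peaks. DN3 E2A peaks covered 74.96% of kept, 39.0% of not met again and 7.01% of new peaks. CD73+ HEB peaks covered 70.7% of kept, 16.7% of not met again and 8.32% of new peaks. No peak of the 4 other lists, with CD73+ E2A as the fourth, was found at 76.5% of new peaks, 9.35% of kept DN3 peaks and 49.7% of DN3 peaks not met again. E2A and HEB lists of a population share its input library.

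Among strong peaks the contrast remained for CD73- E2A and CD73+ HEB and was small for DN3 E2A. Among DN3 HEB peaks scoring at least 100, a DN3 E2A peak was present at 89.4% of kept peaks and 81.6% of those not met again, so both classes were joint E2A and HEB sites in DN3 cells. A CD73- E2A peak, in contrast, was present at 64.8% of the kept and 9.75% of the others. A CD73+ HEB peak was present at 82.0% of the kept and 38.0% of the others. The strong kept DN3 peaks still scored higher, with medians of 264 and 142. At DN3 HEB scores of 100 to 250, DN3 E2A covered 82.2% of kept and 79.4% of not met again peaks. At 250 or more it covered 95.7% and 96.4%. CD73- E2A covered 48.4% and 7.70% at 100 to 250, and 79.0% and 23.8% at 250 or more. The part of score differences within these ranges was not tested. Of the 213 new CD73- peaks scoring at least 100, 40.4% had a CD73- E2A peak, 34.7% a DN3 E2A peak, and 39.0% (83 peaks) none in any other list.

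**Figure D3:**
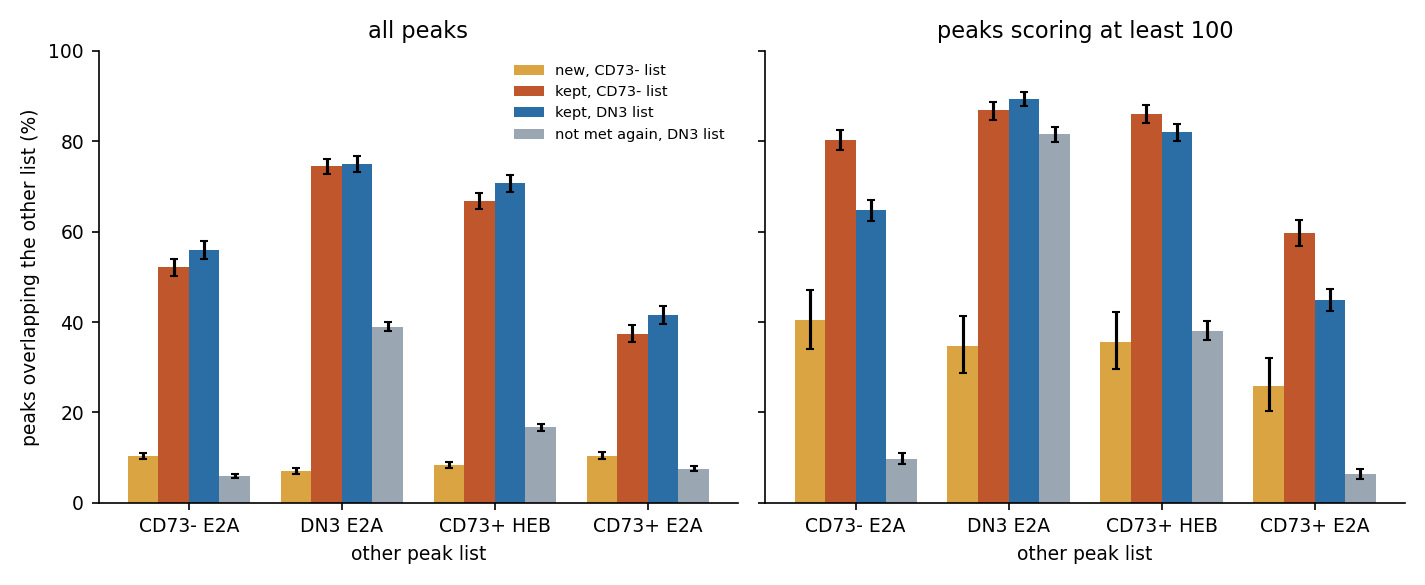
Share of HEB peaks that overlap a peak of each other list (%, vertical axis), for new and kept CD73- peaks and for kept and not met again DN3 peaks, with all peaks on the left and peaks scoring at least 100 on the right. Bars are shares with 95% Wilson intervals, and CD73- E2A peaks are at 64.8% of kept strong DN3 peaks but at 9.75% of strong DN3 peaks not met again.

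The 1980 DN3 HEB peaks scoring at least 100 that were not met again divided into 4 sets by the CD73- E2A and CD73+ HEB lists. Neither list had a peak at 1156 of them (58.4%), CD73+ HEB alone at 631 (31.9%), CD73- E2A alone at 71 (3.59%) and both at 122 (6.16%). The split was different for the 252 that scored at least 250: neither list had a peak at 90 (35.7%), CD73+ HEB alone at 102 (40.5%), CD73- E2A alone at 10 (3.97%) and both at 50 (19.8%). The examples that follow are from this higher range. The set without either held the Xbp1 site (chr11:5499751-5501984, DN3 HEB score 1039, DN3 E2A score 1913) and peaks inside Esr1, the oestrogen receptor gene (499), and Zbtb7b, which encodes the CD4 lineage factor ThPOK (429.8). The set with CD73+ HEB alone held peaks inside the mTORC1 activator gene Rheb (464) and 2358 bp from the mRNA decay factor gene Zfp36l2 (474). The set with both held peaks inside Tpst2, a tyrosylprotein sulfotransferase gene (789), and Rab11fip4, a Rab11 effector gene (727), and a pair of sites in the V region of the T cell receptor alpha and delta locus (849 and 847). These last sites thus lacked a CD73- HEB peak while a CD73- E2A peak was called there, with scores of 66.3 at Tpst2 and 57.5 at Rab11fip4, near the lowest score in the lists.

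Few new peaks were strong. The highest formed 1 stretch, chr6:47636404-47686936, with 30 CD73- HEB peaks and 0 DN3 HEB peaks, in which the peak at the predicted gene Gm40369 scored 1352 and those at Gm40365 and Gm36327 scored 781 and 581. The DN3 E2A list had peaks there (611 at Gm40369), so the region was not without peaks in DN3 cells. Crowded stretches were defined by CD73- peaks with at least 5 CD73- peak starts, their own included, within 20 kb on either side. They held 615 CD73- peaks (6.54%), 350 of them new, and 10 of the 19 new peaks scoring at least 200. Outside them the highest new peaks lay inside Aven, an apoptosis inhibitor gene (416), inside Rpl22, a ribosomal protein gene (295), 23615 bp from Col19a1, a collagen gene (278), and inside Zfp185 (257) and the potassium channel gene Kcnq1 (255). Those at Rpl22, Zfp185 and Kcnq1 were only 134, 67 and 65 bp wide. No peak of the DN3 E2A, CD73- E2A or CD73+ HEB lists met those at Rpl22 and Kcnq1. A DN3 E2A peak met those at Aven (score 170), Col19a1 (1728) and Zfp185 (178). Of the 12 new peaks scoring at least 250, inside crowded stretches or not, 10 had a DN3 E2A peak.

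By nearest gene, 5033 of 21887 protein-coding genes (23.0%) had a CD73- HEB peak and 6156 (28.1%) a DN3 HEB peak. Of the genes with a DN3 peak, 1823 kept at least 1 (29.6%), 2937 had no CD73- peak of any kind (47.7%), and 1396 had CD73- peaks that overlapped none of their DN3 peaks (22.7%). A further 1814 genes, 36.0% of those with a CD73- peak, had CD73- peaks only. Of 1828 genes with a kept peak, 1110 (60.7%) also had DN3 peaks not met again, 2723 peaks in all, and 713 kept every DN3 peak they had. Genes with a kept peak had a median best DN3 score of 206 and a median span of 44616 bp, and genes with DN3 peaks only had 70.8 and 28400 bp. The median span of all protein-coding genes was 17169 bp, so long genes were nearest to a peak more often.

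The 36 lists of thymocyte and control genes hold 493 matched protein-coding genes, of which 281 had a DN3 HEB peak. Of these members, 133 kept a peak (47.3%, against 29.6% of all genes with a DN3 peak), 109 had DN3 peaks only and 39 had peaks in both populations without an overlap. A further 29 members had CD73- peaks only. For every list count below, the shares over all genes with a DN3 peak are 29.6% kept and 47.7% with DN3 peaks only. Over all protein-coding genes, peaks or not, 8.35% had a kept peak, 13.4% had DN3 peaks only, 6.38% had both without overlap and 8.29% had CD73- peaks only, and of the 493 members 183 had no peak in either list. Counted by peak the members were nearer the rest, with 24.6% of their 772 DN3 peaks kept, against 19.4% of all. Among peaks scoring at least 100 the share was 43.8% for the members' 320 peaks, against 44.5% of all such peaks. Their DN3 peaks had a median score of 86.6, against 70.9 for all DN3 peaks, so the members' higher count went with stronger DN3 peaks.

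**Figure D4:**
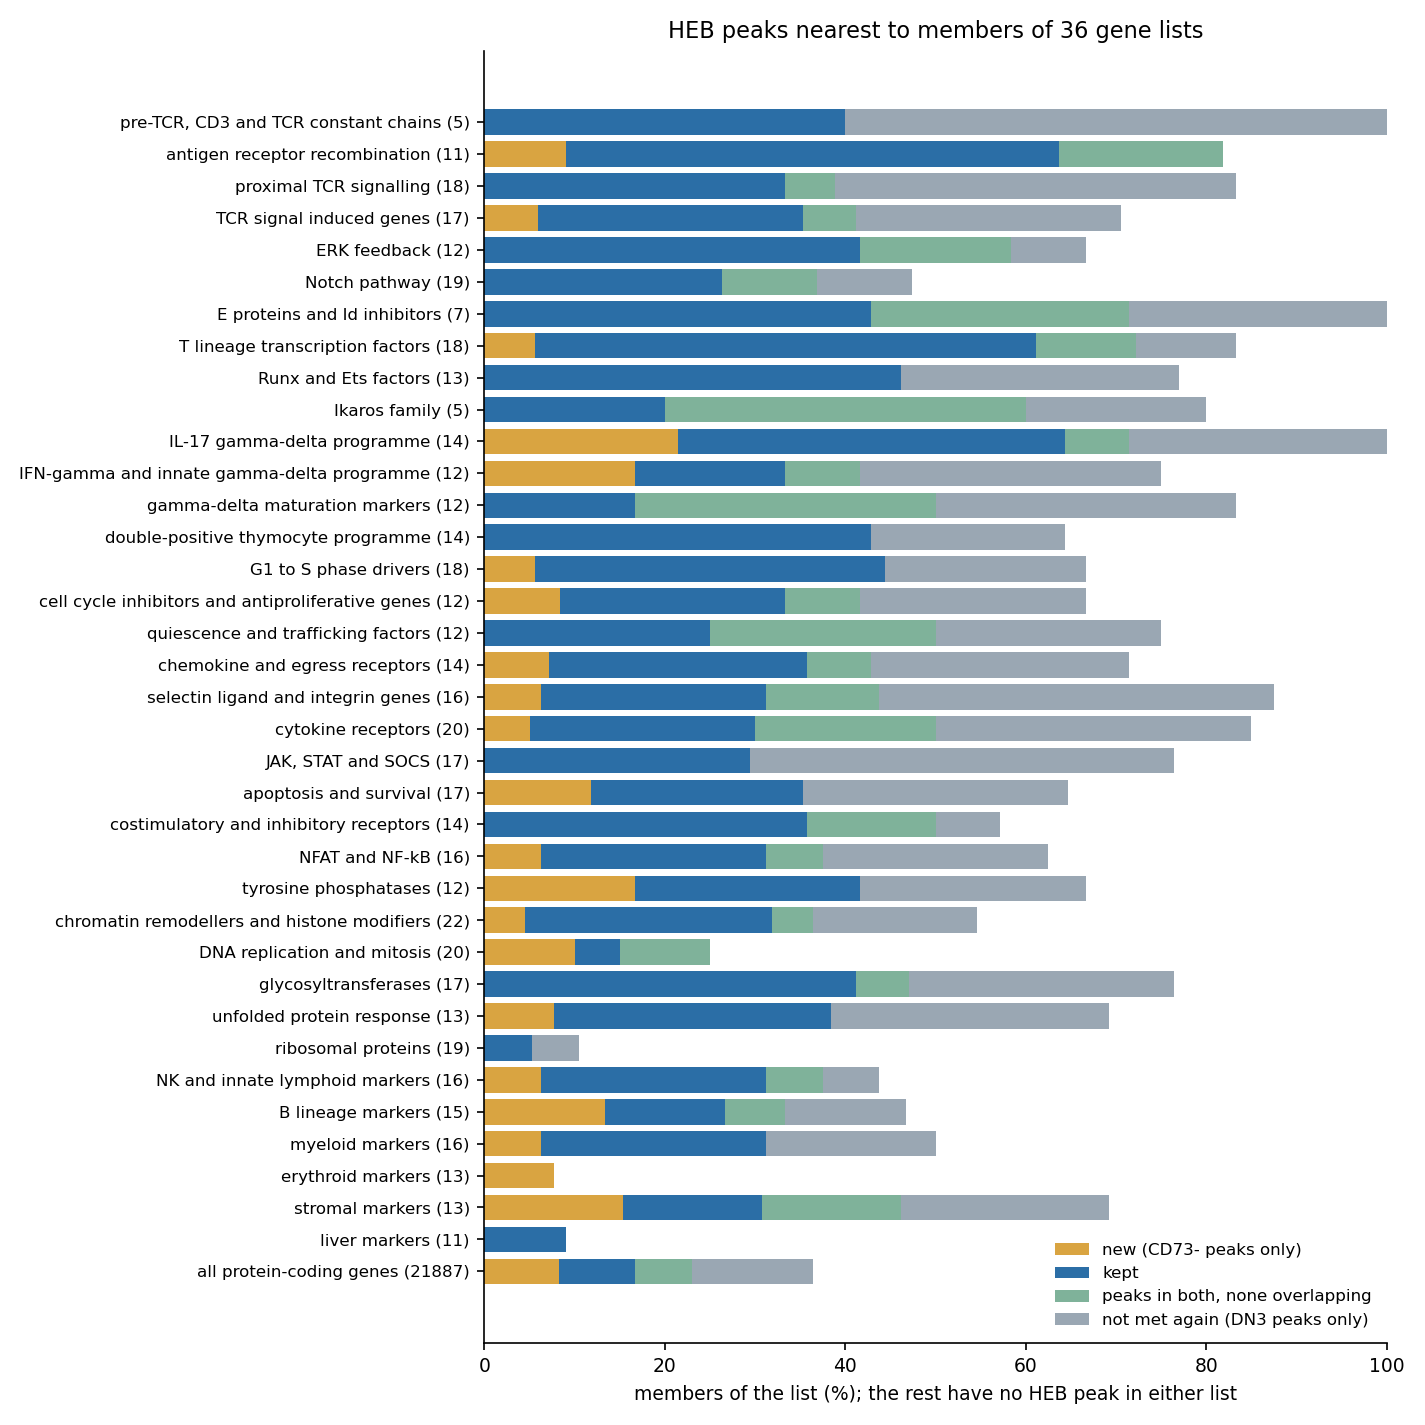
Share of the members of each of 36 gene lists (%, horizontal axis) with new CD73- peaks only, at least 1 kept peak, peaks in both lists without overlap, or DN3 peaks only, with the number of matched members in brackets and all 21887 protein-coding genes at the bottom. Antigen receptor recombination genes show 6 kept members and no member with DN3 peaks only, while JAK, STAT and SOCS genes show 5 kept members and 8 with DN3 peaks only. With both lists at scores of at least 100, not drawn, the counts are 3 and 4 for recombination genes and 2 and 4 for JAK, STAT and SOCS genes.

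Genes of E proteins and Id inhibitors kept 5 of their 29 DN3 peaks (17.2%). Tcf12, the gene of HEB itself, kept an intragenic site with scores of 56.6 in CD73- cells and 141 in DN3 cells. Tcf3, the gene of E2A, had no CD73- peak, and its DN3 peaks scored 120.3 and 57.1. Id2 kept 3 of 16 DN3 peaks, all distant: the one 92666 bp away scored 739 in CD73- cells and 1552 in DN3 cells, while the DN3 peak 152 bp from the gene (96.3) was not met again. Id3, the inhibitor induced by receptor signals, kept a site 2149 bp away with scores of 66.0 in CD73- cells and 75.1 in DN3 cells. Id1 had DN3 peaks only. In the list as a whole 3 of 7 members kept a peak, 2 had DN3 peaks only and 2 had peaks in both populations without overlap.

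T lineage transcription factors kept HEB at 10 of the 14 members with a DN3 peak (71.4%, against 29.6% of all such genes). By peak, 14 of their 58 DN3 peaks were kept (24.1%, against 19.4% of all DN3 peaks). Of those scoring at least 100, 11 of 25 were kept (44%, against 44.5% of all such peaks). With genes within 10 kb only, 5 members kept a peak and 7 had DN3 peaks only. With both lists at scores of at least 100, the counts were 8 and 3. The site 30424 bp from Tcf7, the gene of TCF-1, scored 286 in CD73- cells and 666 in DN3 cells, while a DN3 peak of 205 inside the gene and one of 193 at 9202 bp were not met again. At Gata3, the distal site 261149 bp away scored 112 in CD73- cells and 259 in DN3 cells. Bcl11b, required for T lineage commitment, kept an intragenic peak of 109 in CD73- cells and 157 in DN3 cells but not a neighbouring intragenic DN3 peak of 161. Lef1 kept a site 162298 bp away, with scores of 109 in CD73- cells and 319 in DN3 cells, and not its highest DN3 peak (369). Sox4, 4878 bp from its site, had scores of 442 in CD73- cells and 926 in DN3 cells. Meis1, a progenitor factor, had 5 DN3 peaks and no CD73- peak.

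Runx and Ets genes kept HEB at 6 of 10 members with a DN3 peak (60%, against 29.6% of all such genes). These members had many peaks, and 9 of their 43 DN3 peaks were kept (20.9%, against 19.4% of all). Of those scoring at least 100, 6 of 18 were kept (33.3%, against 44.5% of all such peaks). When both lists were limited to such scores, 2 members kept a peak and 4 had DN3 peaks only. Runx1 kept distal sites more than 300 kb away, the stronger with scores of 142 in CD73- cells and 596 in DN3 cells. Ets1 kept an intragenic site (201 in CD73- cells, 278 in DN3 cells) and one at 170450 bp (247 in CD73- cells, 301 in DN3 cells), which are 2 of its 13 DN3 peaks. Runx3 kept 1 of 7, with scores of 61.4 in CD73- cells and 135 in DN3 cells. In the Ikaros family only Ikzf2, the gene of Helios, kept a site, and there the CD73- score (199) was above the DN3 score (149).

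Notch genes had 5 kept members of 9 with a DN3 peak (55.6%, against 29.6% of all such genes). By peak, 6 of their 26 DN3 peaks were kept (23.1%, against 19.4% of all). Of those scoring at least 100, 3 of 12 were kept (25%, against 44.5% of all such peaks). With both lists at scores of at least 100, 2 members kept a peak and 5 had DN3 peaks only. Notch1 kept the site 8984 bp away, which scored 201 in CD73- cells and 1056 in DN3 cells and was the only strong HEB peak of the gene. The intragenic Notch3 site scored 725 in CD73- cells and 1591 in DN3 cells. Notch3 is a target of Notch1 and of the pre-T cell receptor in thymocytes. Hes1, a classical Notch target, kept only weak sites (86.2 in CD73- cells and 53.6 in DN3 cells, and 60.4 in CD73- cells and 70.4 in DN3 cells), and its stronger DN3 peaks of 174 and 166 were not met again. The ligand gene Dll4 had DN3 peaks only.

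**Figure D5:**
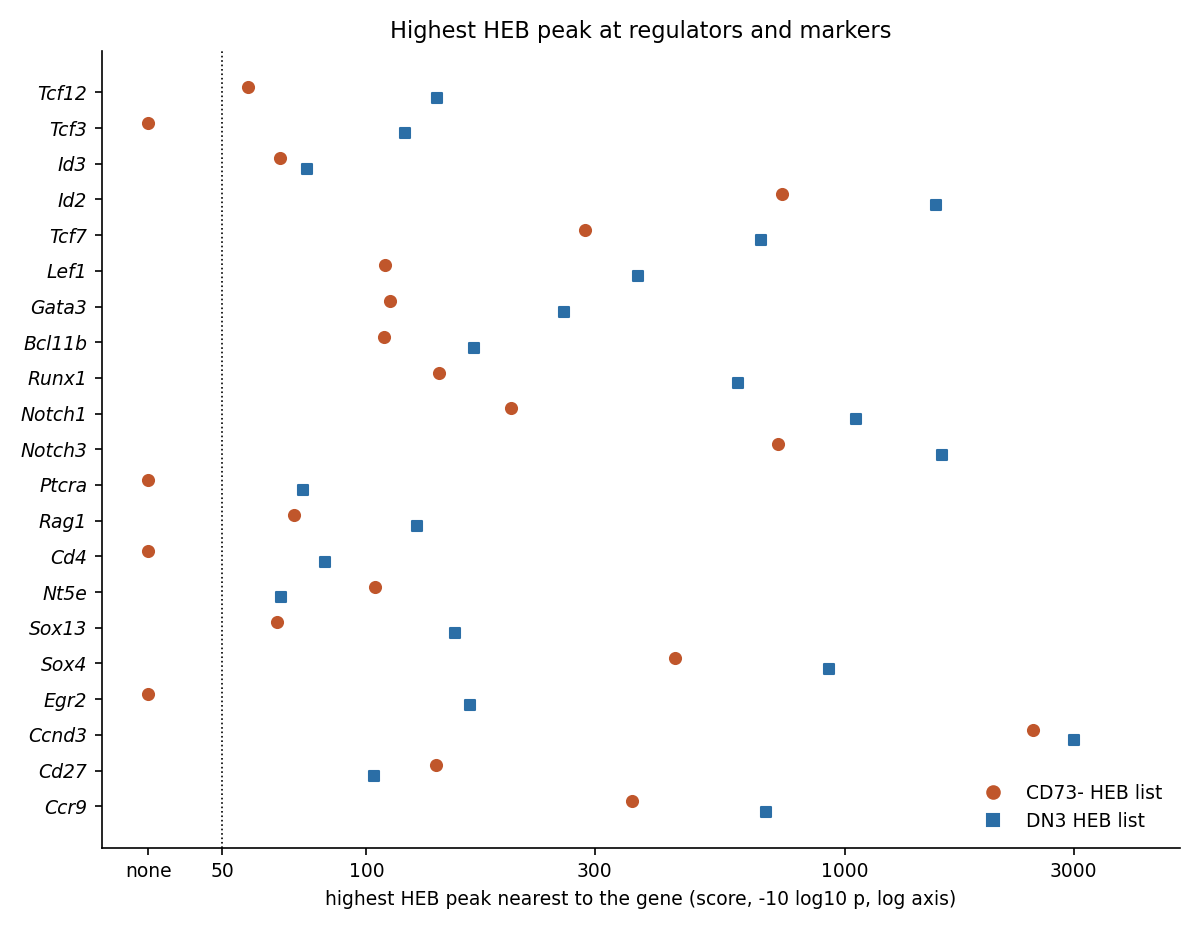
Score of the highest HEB peak (horizontal axis, minus 10 log10 p, log scale) nearest to each of 21 regulators and markers, with the CD73- list as circles and the DN3 list as squares, and genes without a peak at the left edge. The highest CD73- and DN3 peaks of a gene need not be the same site. Tcf3, Ptcra, Cd4 and Egr2 had no CD73- peak, and only Nt5e and Cd27 had a higher score in the CD73- list.

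Of 8 antigen receptor recombination genes with a DN3 peak, 6 kept one (75%, against 29.6% of all genes with a DN3 peak) and none had DN3 peaks only. With a score of at least 100 required in both lists, 3 kept a peak and 4 had DN3 peaks only. Xrcc6, the gene of Ku70, kept an intragenic site with scores of 643 in CD73- cells and 962 in DN3 cells. Dntt, the gene of terminal transferase, kept 2 of 4 DN3 peaks, with scores of 201 in CD73- cells and 392 in DN3 cells at 6159 bp, and of 65.7 in CD73- cells and 324 inside the gene in DN3 cells. Lig4, the gene of DNA ligase IV, kept both of its DN3 peaks, the stronger with scores of 156 in CD73- cells and 319 in DN3 cells. Rag1 kept a site 581 bp away, with scores of 70.6 in CD73- cells and 127 in DN3 cells. Rag2, the gene that is defective in all these cells, had no HEB peak nearest to it in either list.

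The receptor chains themselves were divided. The site 2374 bp from Trac, the alpha constant gene, was kept with scores of 1074 in CD73- cells and 1311 in DN3 cells, and the site near Trbc2, the second beta constant gene, with 317 in CD73- cells and 638 in DN3 cells. Gamma constant genes kept weaker sites, with 86.5 in CD73- cells and 143 in DN3 cells near Trgc4, 58.2 in CD73- cells and 51.4 in DN3 cells near Trgc3, and 50.7 in CD73- cells and 106 in DN3 cells near Trgc2. The DN3 peak near Trgc1 (111) was not met again, although CD73+ HEB scored 483 there. Constant genes of the gamma locus are near-copies of each other, so reads at them may be shared. Over the alpha and delta locus, chr14:52427967-54224198, CD73- cells had 14 HEB peaks and DN3 cells 64, of which 9 were kept (14.1%), and 16 of those not met again had a CD73+ HEB peak. The CD3 zeta gene Cd247 kept intragenic sites of 282 in CD73- cells and 496 in DN3 cells, and of 138 in CD73- cells and 287 in DN3 cells, and Cd3g kept one of 55.5 in CD73- cells and 197 in DN3 cells. Cd3e, Cd3d and Ptcra, the pre-T cell receptor alpha gene, had DN3 peaks only, with highest scores of 84.7, 70.6 and 73.7.

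Proximal signalling genes split into 6 with a kept peak and 8 with DN3 peaks only, and 8 of their 48 DN3 peaks were kept (16.7%). Lat, the adaptor that links the receptor to Ras and calcium signalling, kept an intragenic site with scores of 138 in CD73- cells and 489.9 in DN3 cells and one at 23322 bp with 171 in CD73- cells and 148 in DN3 cells. Lck, the kinase that starts receptor signalling, kept a site of 83.9 in CD73- cells and 123 in DN3 cells. Cd28 kept 2 sites, of which the one 3587 bp away scored 246 in CD73- cells and 134 in DN3 cells. Zap70, the kinase recruited to the receptor, and Lcp2, the gene of the adaptor SLP-76, had DN3 peaks only, at up to 149 and 162.

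Genes induced by receptor signals had 5 kept members and 5 with DN3 peaks only. Egr2, whose product acts upstream of Id3, had 1 DN3 peak of 164 at 30176 bp and no CD73- peak. Nr4a3 (157), Irf4 (132) and Fos (122) likewise had 1 DN3 peak each and none in CD73- cells, though CD73- E2A scored 243 at the Nr4a3 site. Nr4a1, the gene of Nur77, kept its intragenic site with scores of 135 in CD73- cells and 379 in DN3 cells. Myc kept 1 of 8, the site 220905 bp away, where the CD73- score was 82.8 and the DN3 score 1207. Egr1 had a new peak only (64.8). ERK feedback genes kept HEB at 5 of 8 members. Kept members fell to 1 with genes within 10 kb only, and to 2 with both lists at scores of at least 100. Spred2, an inhibitor of Ras signalling, had a site at 72428 bp of 882 in CD73- cells and 1188 in DN3 cells. The phosphatase genes Dusp2, Dusp4 and Dusp6 had sites of 118, 56.2 and 80.9 in CD73- cells, against 443, 296 and 156 in DN3 cells. Spry1 had a DN3 peak only (92.6).

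Genes of the gamma-delta fates were divided. In the IL-17 programme 6 of the 11 members with a DN3 peak kept one (54.5%, against 29.6% of all such genes). Of the others 4 had DN3 peaks only, and 3 further members had CD73- peaks only. Of their DN3 peaks scoring at least 100, 6 of 9 were kept (66.7%, against 44.5% of all such peaks). With both lists at such scores, 2 members kept a peak and 5 had DN3 peaks only. Cd163l1, a scavenger receptor gene of gamma-delta cells, kept an intragenic site of 333 in CD73- cells and 454 in DN3 cells, and the Src-family kinase gene Blk one of 89.3 in CD73- cells and 369.7 in DN3 cells. Il23r kept a site of 136 in CD73- cells and 212 in DN3 cells, and Sox13 one of 65.1 in CD73- cells and 153 in DN3 cells. Maf, Il17a and Il17f had CD73- peaks only, with highest scores of 78.7, 73.0 and 67.1, and no DN3 E2A or CD73+ HEB peak at those sites. In the interferon-gamma and innate list 2 of 7 members kept a peak. Cd27 had a site of 139.7 in CD73- cells and 104 in DN3 cells. Zbtb16, the gene of PLZF, had a DN3 peak only (94.3), and Tbx21, the gene of T-bet, a CD73- peak only (55.2).

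Maturation markers kept a peak at 2 of 10 members. Nt5e, the gene of CD73 itself, had an intragenic DN3 peak of 66.4 that was not met again and a new CD73- peak of 104 at 231061 bp, where DN3 E2A and CD73+ HEB also had peaks. Cd24a and Cd5 had DN3 peaks only, with highest scores of 146 and 83.8. Thy1 kept 2 of its 5 DN3 peaks, the intragenic one with scores of 71.0 in CD73- cells and 193 in DN3 cells. In the double-positive thymocyte list 6 of 9 members kept a peak. Ccr9 kept both DN3 sites, the stronger with 359 in CD73- cells and 684 in DN3 cells, and Cd8b1 kept one of 77.2 in CD73- cells and 256 in DN3 cells. Zbtb7b (429.8) and Cd4 (82.0) had DN3 peaks only.

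In the list of G1 to S phase drivers 7 of the 11 members with a DN3 peak kept one (63.6%, against 29.6% of all genes with a DN3 peak), and 7 of their 10 strong DN3 peaks were kept (70%, against 44.5% of all strong DN3 peaks). Kept members fell to 4 with genes within 10 kb only, and to 2 with both lists at scores of at least 100. Other lists had like strong shares, with 4 of 5 (80%) for cell cycle inhibitors and antiproliferative genes and 5 of 7 (71.4%) for myeloid markers. E2f2, besides Ccnd3 above, had a single intragenic DN3 site, of 966 in CD73- cells and 1707 in DN3 cells. Mycn (230.3) and Ccnd1 (123) had DN3 peaks only. Tob1, an antiproliferative gene, had like scores of 389 in CD73- cells and 396 in DN3 cells. Cdkn2a had a new peak only (109). Of 20 DNA replication and mitosis genes only 3 had a DN3 peak, and Mcm2, a subunit of the replicative helicase, kept an intragenic site of 506 in CD73- cells and 1773 in DN3 cells. Quiescence factors kept a peak at 3 of 9 members, with Klf13 keeping 6 of 12 DN3 peaks, the highest of 905 in CD73- cells and 1109 in DN3 cells, and Klf2 having DN3 peaks only (155).

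Of 9 chemokine and egress receptor genes with a DN3 peak 4 kept one (44.4%), and of 13 selectin ligand and integrin genes 4 (30.8%), beside 29.6% of all genes with a DN3 peak. Cxcr4 kept 1 of 9 DN3 peaks, an intragenic one of 199 in CD73- cells and 426 in DN3 cells, and Cxcr5 one of 118 in CD73- cells and 199 in DN3 cells. Cxcr3 (198) and Ccr7 (104) had DN3 peaks only. Selplg, the gene of the selectin ligand PSGL-1, kept an intragenic site of 1116 in CD73- cells and 1577 in DN3 cells, while the integrin genes Itgae (125), Itga4 (105) and Itgb1 (65.6) had DN3 peaks only. Among 16 cytokine receptor genes with a DN3 peak, 5 kept one (31.2%) and 7 had DN3 peaks only. Il6ra kept a site of 607 in CD73- cells and 988 in DN3 cells, and Tgfbr1 one of 397 in CD73- cells and 379 in DN3 cells. Il21r had 5 DN3 peaks of up to 212 and no CD73- peak, and Il7r a single DN3 peak of 65.0. JAK, STAT and SOCS genes had 5 kept members and 8 with DN3 peaks only, with Socs3 at 794 in CD73- cells and 1141 in DN3 cells, and Cish, a feedback inhibitor, with a DN3 peak only (204).

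Survival genes differed among themselves. The pro-apoptotic genes Bbc3 and Bcl2l11, the gene of BIM, kept HEB, and Bcl2l11 did so at 4 of 9 DN3 peaks, with an intragenic site of 346 in CD73- cells and 414 in DN3 cells. Bcl2l1, which encodes BCL-XL, kept a site of 92.9 in CD73- cells and 514 in DN3 cells. Bcl2 (166), Pmaip1 (102), Mcl1 (92.2) and Bid (69.2) had DN3 peaks only, and Bmf had a CD73- peak only (61.5). Pmaip1, Bid and Bmf are also pro-apoptotic genes, so such genes were among the kept, the not met again and the new. In the list 4 of 9 members kept a peak and 5 had DN3 peaks only. Lag3, an inhibitory receptor gene, kept a site 3122 bp away of 573 in CD73- cells and 1106 in DN3 cells. Nfkbia, the inhibitor of NF-kB, kept a DN3 peak of 569.8 in which the highest CD73- score was 69.96, and Nfatc2 had 5 DN3 peaks of up to 256 and no CD73- peak.

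Glycosyltransferase genes kept a peak at 7 of 13 members with a DN3 peak (53.8%, against 29.6% of all such genes). By peak, 12 of their 52 DN3 peaks were kept (23.1%, against 19.4% of all). Of those scoring at least 100, 11 of 25 were kept (44%, against 44.5% of all such peaks). Mgat4a had a site of 437 in CD73- cells and 994 in DN3 cells, and St3gal1 an intragenic one of 305 in CD73- cells and 736 in DN3 cells. Mgat5 had a DN3 peak only (246). In the unfolded protein response 4 of 8 members kept a peak, and Xbp1, Herpud1 (254) and Edem1 (182) had DN3 peaks only. Hdac4, a class IIa deacetylase gene, kept 4 of 9 DN3 peaks, the highest of 402 in CD73- cells and 759 in DN3 cells. The highest peak of a chromatin gene, nearest to Arid1b but 367519 bp from it, scored 3022 in CD73- cells and 3100 in DN3 cells, with a DN3 E2A score of only 79.2. Ptprc, the gene of CD45, kept 1 of 9 DN3 peaks, and its highest DN3 peak (316.5) was not met again.

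Marker genes of other cell types were also among the genes nearest to peaks. Over all protein-coding genes 28.1% had a DN3 peak, and 29.6% of those kept one. Of 16 myeloid markers 7 had a DN3 peak and 4 kept one, with Itgam at 135 in CD73- cells and 784 in DN3 cells. B lineage markers had 5 with a DN3 peak and 2 kept, NK and innate lymphoid markers 6 and 4 (Id2 among them), and stromal markers 7 and 2. No erythroid marker of 13 had a DN3 peak and 1 of 11 liver markers had one, and of 19 ribosomal protein genes 2 had one. The B lineage factors Ebf1 and Pax5 had DN3 peaks only (85.5) and a CD73- peak only (56.5). A peak near a marker gene measures binding and not expression, so the labelled cell types cannot be checked from it.

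Over all peaks, HEB from DN3 to CD73- cells kept a larger share than E2A over the same step and a smaller one than HEB on the way to CD73+ cells. The kept share was 19.4% for HEB and 13.03% for E2A from DN3 to CD73- cells, and 27.2% for HEB from DN3 to CD73+ cells, which starts from the same DN3 list. At DN3 scores of at least 250 the shares were 77.2% for HEB (74.6 to 79.5%) and 45.7% for E2A (43.4 to 48.0%) in CD73- cells, and 82.3% for HEB in CD73+ cells. At 1000 or more the order of the HEB steps turned, with 109 of 110 (99.1%) kept in CD73- cells and 106 of 110 (96.4%) in CD73+ cells, and E2A kept 263 of 289 (91.0%) in CD73- cells. The lists differ in length and strength, each has 1 library, and the difference between these shares could not be tested against replicate error.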

How the data were processed

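ChIP-seq peak lists of HEB and E2A from DN3, CD73- and CD73+ cells of mouse were used as deposited. Bowtie, HOMER and MACS 1.4.2 and build mm10 are named in the submitters' processing notes. Per the labels, duplicates were joined before analysis, so there is 1 list per group. The deposited score of a peak is, by the MACS 1.4 convention for such files, minus 10 times the log10 of its p-value. Read depth is not given with the lists and is unknown, so intervals cover counting error only. No column was left unmatched to a sample.

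Peaks on 21 chromosomes were compared by overlap (1 bp) and assigned to the nearest span of 21887 protein-coding genes (RefSeq, GRCm38.p6). The planned use of gene start sites served only to break ties. Of 500 listed symbols 493 matched, 2 of them by synonym, and 7 constant-region genes are not protein-coding. Members, lists and thresholds were chosen with earlier results of these data known. Named genes are the 10 highest peaks of each class, up to 4 list members per state with the highest score, and a set of regulators named whatever their values. Genes of the printed promoters, constant regions and subsets of strong peaks, and Trim8, Lck and Rag2, were chosen after their values were seen. A few named genes are left out of the text but remain in the counts. Promoter windows on 1 chromosome were not used. Strand was checked on 723 overlapping windows, which all matched. Methods were tested on simulated data. Software was Python 3.11.15 with pandas 2.3.3, numpy 2.4.6, matplotlib 3.10.9 and scipy 1.17.1.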

Additional observations from a re-analysis of the deposited data

Results flagged for a closer look

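HEB peaks were also deposited on sequences outside chromosomes 1 to 19, X and Y, which the comparison does not use. The CD73- list held 151 such peaks on 18 sequences, with scores of up to 1765 and 72 of at least 100, and the DN3 list held 44 on 15 sequences, with scores of up to 1853 and 31 of at least 100. Of these, 107 CD73- peaks overlapped a DN3 HEB peak and 37 DN3 peaks overlapped a CD73- HEB peak. A CD73- E2A peak lay at 89 of the CD73- peaks and a DN3 E2A peak at 33 of the DN3 peaks. They stand out because they lie in data that no comparison above uses and are above the 3 peaks taken as a floor, with no control list to set them against. No gene was assigned to them.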

How the results depend on the processing

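No paired analysis was possible because each population has 1 list made from joined duplicates, and for the same reason no replicate could be left out. The share of DN3 HEB peaks kept, 19.4%, was 44.5% for DN3 scores of at least 100, 26.7% with that limit on both lists, 22.8% at equal list lengths, 0.895% when 50% of both peaks had to overlap, 15.7% with midpoints within 200 bp, 15.7% with all peaks set to 200 bp and 21.8% when a peak within 1 kb sufficed. The share of new CD73- peaks, 71.7%, was 15.8%, 23.7%, 72.9%, 98.9%, 80.0%, 80.0% and 69.2% under the same settings in that order (the first with the limit on the CD73- list), 73.6% without peaks over 3000 bp and 72.7% without crowded stretches, a setting chosen after seeing the data. The low value under the 50% rule follows from CD73- peaks being narrower than the DN3 peaks that hold them. Kept genes numbered 1828, and 852 with both lists at a score of at least 100, all among the 1828. Genes with DN3 peaks only numbered 2937 and 1630 (811 shared), new genes 1814 and 205 (63 shared), and genes with peaks in both lists but no overlap 1396 and 33, or 568 with genes within 10 kb only. Of the list members 133 were kept and 29 new, and at that limit 66 and 7. With 50% overlap, and at scores of at least 100, DN3 E2A covered 66.9% and 89.4% of kept DN3 peaks, 34.99% and 81.6% of those not met again, and 0.282% and 34.7% of new peaks, and CD73- E2A covered 3.55% and 64.8%, 0.0854% and 9.75%, and 7.34% and 40.4%. The E2A kept share of 13.03% was 24.3% at DN3 scores of at least 100, and that of HEB in CD73+ cells, 27.2%, was 57.6% there and 30.0% at equal list lengths. Of 288 counts of list members under these settings, 229 stayed within 1.5 times of the values given. The cause of the other shifts was not tested. Since the CD73- list holds few strong peaks and its depth is unknown, sites not met again cannot be told apart from sites below detection, most of all for DN3 scores under 100.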
